A study of Mus musculus with 2116 samples.

Results

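Cells called innate-like here made up a small, uneven fraction of the conventional CD4+ T cells captured from mouse spleen by single-cell RNA sequencing. They were chosen as cells of the conventional T cell (Tconv) library that had at least 500 unique molecular identifiers (UMIs, each counting 1 captured transcript) and at least 1 UMI summed over 8 genes of innate-like and cytotoxic lymphocytes: Cxcr6, Ccl5, Xcl1, Nkg7, Zbtb16, Klrk1, Klrb1c and Ctsw. Of the 2116 cells in the whole data set 1300 were Tconv cells, and 6 of those had fewer than 500 UMIs. Of the others, 77 met the rule (5.95%) and 1217 had 0 such UMIs. The 77 cells are called marker-positive, the 1217 cells marker-negative, and the 8 genes rule genes. Within the 77, 19 cells held at least 2 distinct rule genes and are called multi-marker cells, and 52 cells held exactly 1 rule UMI. For these 52 cells the name rests on that UMI alone, and most gene lists were close to marker-negative levels (below).

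The study profiled spleen CD4+ T cells of B6 Foxp3-Ires-Gfp mice, a strain in which GFP reports Foxp3, with inDrops, a droplet method that captures polyadenylated RNA. All cells came from male mice aged 8 months. The 816 regulatory T cells (Treg, FoxP3+) and 1300 Tconv cells (FoxP3-) were each 1 library, with no animals named, and the groups were read from title codes with the series title. Both populations were described as sorted on DAPI-, TCRb+, CD4+ and GFP+, so the stated gate does not tell them apart. Among cells with at least 500 UMIs, Foxp3 gave a UMI in 37.2% of 796 Treg cells, in 6 Tconv cells (0.464%) and in 0 of the 77 marker-positive cells. The median depth was 1510 UMIs per Tconv cell and 1688 per Treg cell, 12 cell barcodes occurred in both libraries, and none of these belonged to a marker-positive cell. With 1 library per group there is no replicate error and no test; each interval below is a 95% interval for counting error only, and it takes UMIs as independent although UMIs of a gene gather within cells.

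Innate-like T cells carry a rearranged T cell receptor yet leave the thymus in a memory-like state and respond within hours of stimulation. The best known are natural killer T (NKT) cells, whose semi-invariant receptor sees lipids on CD1d and whose development depends on PLZF, the product of Zbtb16. Natural killer (NK) cells share many of their receptors and granule proteins but lack the CD3 complex, and CD8 T cells share the granule proteins while carrying Cd8a and Cd8b1, so CD3, coreceptor and NK genes are given together below.

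The promoters of 5 of the 8 rule genes were in the RefSeq promoter table (GRCm38.p6), and the 250 bases upstream of the start are printed for Cxcr6, the gene that most of the multi-marker cells share, and for Xcl1 and Nkg7, found with it. Capitals mark matches to the T-box half-site GGTGTGA and the Runx core TGTGGT, on either strand.
Cxcr6, chr9:123806227-123806476, plus strand: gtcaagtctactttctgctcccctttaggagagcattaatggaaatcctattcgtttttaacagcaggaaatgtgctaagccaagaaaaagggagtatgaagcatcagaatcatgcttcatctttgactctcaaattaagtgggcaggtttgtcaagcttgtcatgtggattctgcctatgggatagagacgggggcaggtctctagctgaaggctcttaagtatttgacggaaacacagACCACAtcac
Xcl1, chr1:164935523-164935772, minus strand: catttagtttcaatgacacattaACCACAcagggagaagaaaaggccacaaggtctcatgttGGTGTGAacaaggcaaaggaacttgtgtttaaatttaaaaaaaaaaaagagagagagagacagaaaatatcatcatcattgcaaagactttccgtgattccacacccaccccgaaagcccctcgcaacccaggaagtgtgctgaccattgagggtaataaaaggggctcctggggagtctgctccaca
Nkg7, chr7:43436888-43437137, plus strand: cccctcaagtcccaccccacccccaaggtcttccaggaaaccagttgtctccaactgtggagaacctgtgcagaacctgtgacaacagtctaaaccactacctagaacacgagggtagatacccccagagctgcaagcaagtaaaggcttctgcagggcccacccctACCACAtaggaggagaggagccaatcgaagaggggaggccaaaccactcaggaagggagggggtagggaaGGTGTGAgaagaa
The Runx core was present in all 5 promoters (Cxcr6, Xcl1, Nkg7, Klrk1 and Klrb1c), against 14.04% of all 32851 promoter windows of that length. The T-box half-site was present in those of Xcl1 and Nkg7, against 3.33% of all windows. Of the other motifs searched on both strands, the STAT motif TTCNNNGAA matched Nkg7 only and the ETS motif CACTTCC matched Xcl1 only, while the E-boxes CAGCTG and CAGGTG and the AP-1 motif TGACTCA matched none of the 5. Over all windows, the share with a match was 7.02% for the STAT motif, 8.55% for the ETS motif, 13.001% and 17.2% for the E-boxes and 4.46% for the AP-1 motif. These matches are descriptions of sequence in these windows and do not show that a factor binds there.

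The rule genes were captured sparsely and unevenly. Ctsw, which encodes the cysteine protease cathepsin W of cytotoxic lymphocytes (chromosome 19, 5465043 to 5468507, minus strand, mm10/GRCm38), gave 61 UMIs in 48 Tconv cells, and in 36 of these it was the only rule gene. Cxcr6, the receptor of the chemokine CXCL16 (chromosome 9, 123806475 to 123811760, plus strand), also gave 61 UMIs but in 25 cells, and 18 of the 25 held another rule gene. Ccl5, a chemokine of effector lymphocytes, gave 21 UMIs in 7 cells, with up to 8 in 1 cell. Xcl1, the chemokine lymphotactin, gave 12 UMIs in 5 cells, and Nkg7, a cytotoxic granule membrane protein, 13 UMIs in 9 cells. Klrk1, the activating receptor NKG2D, gave 11 UMIs in 8 cells. Zbtb16 gave 7 UMIs in 7 cells, and Klrb1c, which encodes NK1.1, gave 2 UMIs in 2 cells. These counts chose the cells, so they describe the selection.

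**Figure D1:**
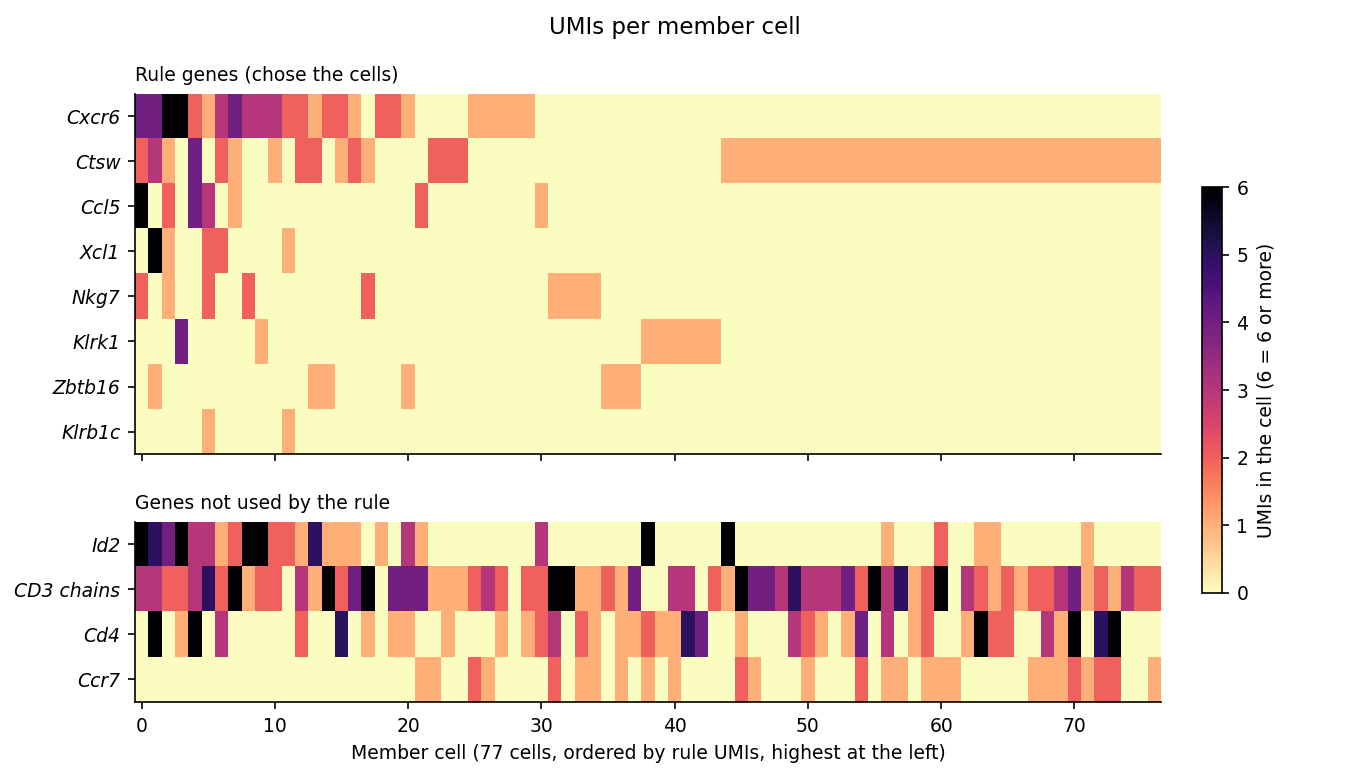
UMIs per marker-positive cell (77 columns, ordered by the number of rule UMIs, highest at the left) for the 8 rule genes (top) and for Id2, the summed CD3 chains, Cd4 and Ccr7 (bottom); colour gives the UMI count, with 6 standing for 6 or more. Cxcr6 and other rule genes gather in the leftmost cells, where Id2 is frequent and Ccr7 is at 0, and 33 cells at the right hold only 1 Ctsw UMI.

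The threshold of the rule lay among the faintest signals. Just inside it were 52 cells with exactly 1 rule UMI, 33 of which had that UMI from Ctsw, and just outside it were the 1217 cells with 0. Another 7 cells held 2 rule UMIs and 18 held at least 3, up to 16 in 1 cell. Marker-positive cells had a median of 1713 UMIs (609 to 6004) and marker-negative cells one of 1500 (506 to 5062), and deeper cells have more chances to show a rule UMI.

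Cells with a rule UMI occurred in both libraries at like shares, and cells with several rule genes made up a larger share of the Tconv library with intervals that overlap. At least 1 rule UMI was found in 5.95% of Tconv cells (Clopper-Pearson interval 4.72 to 7.38) and in 56 of 796 Treg cells, 7.04% (5.36 to 9.04). After thinning every cell to 1000 UMIs, which left out shallower cells, the shares were 5.32% of Tconv cells and 4.61% of 738 Treg cells. At least 2 distinct rule genes were found in 1.47% of Tconv cells (0.886 to 2.28) and in 4 Treg cells, 0.503% (0.137 to 1.28). After thinning these were 13 Tconv cells (1.17%) and 0 of 738 Treg cells, which allows a share of up to 0.407% (3 counts of the cells; the Clopper-Pearson limit is 0.499%).

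The individual genes differed in which library held them. Cxcr6 was present in 1.93% of Tconv cells (1.25 to 2.84) and in 0 of 796 Treg cells, which allows a share of up to 0.377% (Clopper-Pearson limit 0.462%). Ctsw was present in 3.71% of Tconv cells (2.75 to 4.89) and 3.14% of Treg cells (2.04 to 4.60), so its share in Tconv cells was close to that in a library of another cell type. Nkg7 and Ccl5 were found less in Tconv cells (0.696% and 0.541%) than in Treg cells (1.88% and 1.51%), with intervals that overlap. Whether free RNA in the droplets supplied part of the isolated UMIs was not tested.

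**Figure D2:**
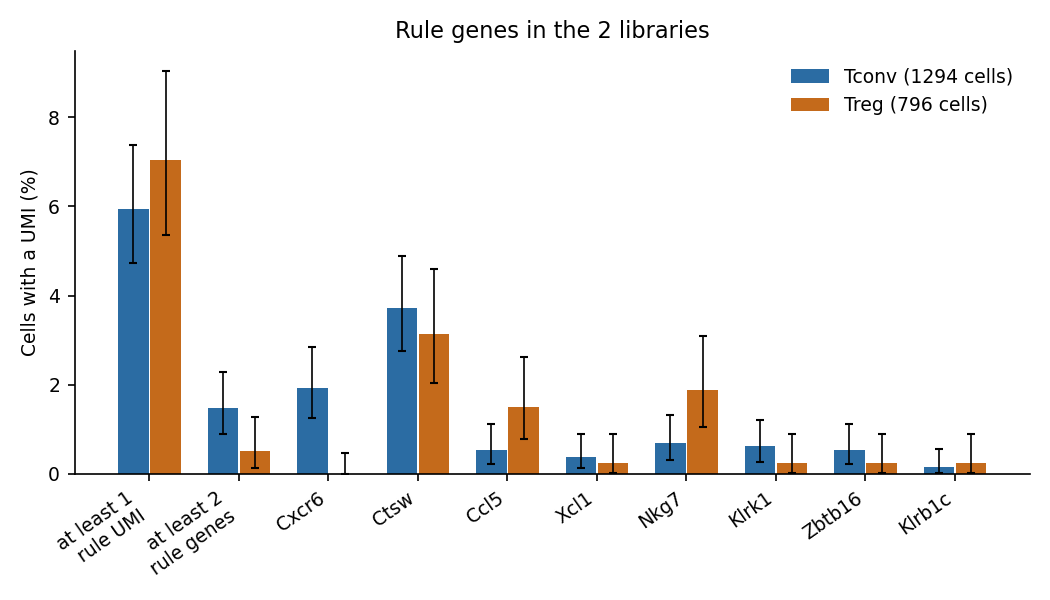
Share of cells with at least 1 rule UMI, with at least 2 distinct rule genes and with a UMI of each rule gene (vertical axis, percent of cells) in the Tconv and Treg libraries (cells with at least 500 UMIs); error bars are Clopper-Pearson intervals. Cxcr6 stands out, at 1.93% of Tconv cells and in no Treg cell, while the shares of Ctsw are close in both libraries.

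To see whether the rule genes went together, each was left out in turn and examined in cells chosen by the other 7. Cxcr6 was present in 18 of 70 Tconv cells chosen by the other genes (25.7%, 16.01 to 37.6) and in 7 of 1224 remaining cells (0.572%, 0.230 to 1.18), with a log2 ratio of summed levels of 6.37 (5.34 to 7.58). In cells with at least 2 of the other 7 genes it was present in 9 of 10. Ctsw was present in 12 of 41 cells chosen without it (29.3%) and in 2.87% of the rest, a log2 ratio of 3.78 (2.96 to 4.57), whereas in the Treg library the same shares were 3.12% and 3.14%. The log2 ratio was 6.37 for Ccl5 (4.59 to 8.77, 3 UMIs in the remaining cells), 5.01 for Nkg7 (3.17 to 7.16), 4.21 for Zbtb16 (1.64 to 6.98, also 3 UMIs) and 3.58 for Klrk1 (1.53 to 5.56). Xcl1 and Klrb1c had no UMI in the remaining cells, and their 5 and 2 cells all held Cxcr6. For each of the 6 genes with a ratio the interval lay above 0. Klrk1 rested on 2 of 71 cells (2.82%, 0.343 to 9.81) against 0.491% (0.180 to 1.06), which overlap, and 4 of its 5 UMIs came from 1 cell. In cells with at least 2 of the other 7 genes Klrk1 was in 0 of 17. In the Treg library the interval also lay above 0 for Ccl5 (2.93, 1.78 to 4.01, in 2 cells) and Xcl1 (4.45, 0.19 to 10.3, in 1 cell), and held 0 for Nkg7 and Ctsw.

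Nearly all multi-marker cells held Cxcr6, a rule gene, and a CD3 chain, with Cd247 counted among the chains. All cells were described as sorted on TCRb+ and CD4+, a gate that selects for CD3 and against CD8, NK and gamma delta T cells. Cxcr6 was present in 18 of the 19, and a UMI of Cd3d, Cd3e, Cd3g or Cd247, the signalling chains of the T cell receptor, in 18 of 19 (94.7%, 73.97 to 99.9), against 85.5% of marker-negative cells (83.4 to 87.5). Per cell, the CD3 chains summed to between 0 and 9 UMIs with a median of 3, and their summed level was 1528 CPM (counts per 1000000 UMIs; 1166.2 to 1967), against 1667 CPM (1609 to 1726) in marker-negative cells. The list of T cell receptor signalling genes, with 12 members measured at 20 or more UMIs, had a summed log2 ratio of -0.02 (-0.23 to 0.18) in multi-marker cells and of -0.04 (-0.15 to 0.07) in all marker-positive cells, or of -0.63 and -0.23 when scaled by TMM factors, which set the typical gene rather than the total equal. Lck, the kinase that starts receptor signalling, was at 1706 CPM in multi-marker cells, a log2 ratio of 0.49 (0.12 to 0.84) whose sign turns with TMM factors. T cell receptor constant and variable segments, including those of the semi-invariant receptors, were not analysed here.

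The share of multi-marker cells with Cd4 had an interval that holds the share of marker-negative cells, and CD8 transcripts were not seen in them. A Cd4 UMI was found in 8 of 19 multi-marker cells (42.1%, 20.3 to 66.5), all with a CD3 chain, and in 46.8% of marker-negative cells (44.002 to 49.7). The Cd4 level was 636.7 CPM in multi-marker and 695.5 CPM in marker-negative cells, a log2 ratio of -0.13 (-0.76 to 0.44), so the interval holds ratios on either side of equality. Without the 5 multi-marker cells that held markers of other blood cells (below), Cd4 was in 3 of 14 cells, with a log2 ratio of -0.47 (-1.43 to 0.34). Another 10 multi-marker cells had a CD3 chain without Cd4, and 1 had neither. Cd8a or Cd8b1 gave a UMI in 0 of 19 multi-marker cells, which allows a share of up to 15.8% (Clopper-Pearson limit 17.6%), in 3 of 77 marker-positive cells (3.90%, 0.811 to 10.97) and in 6.57% of marker-negative cells (5.25 to 8.115), nearly all from Cd8b1.

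NK genes gave few UMIs, in a larger share of multi-marker than of marker-negative cells, though with overlapping intervals once depth was made equal. Of 21 NK genes in the list, 5 had a UMI in multi-marker cells (Klra1, Klra3, Klrd1, Tyrobp and Cd160), with 6 UMIs in 4 cells, each of which also held a CD3 chain. The chains counted include Cd247, and no count without it was made for these 4 cells. Over the 19 cells, Cd3d, Cd3e and Cd3g were found in 14, 7 and 9. The natural cytotoxicity receptor Ncr1 and the transcription factor Eomes, defining genes of NK cells, were at 0 in all 77 marker-positive cells. The NK list gave a UMI in 4 of 19 multi-marker cells (21.1%, 6.05 to 45.6), in 8 of 77 marker-positive cells (10.4%, 4.59 to 19.5) and in 3.78% of marker-negative cells (2.78 to 5.01). In the list of gamma delta T cell genes, the kinase Blk gave 3 UMIs in 1 marker-positive cell and none in a multi-marker cell. Among the 19 cells a CD3 chain, with Cd247 counted as such, accompanied the rule genes in 18. The gate on TCRb+ and CD4+ already selects for such cells, so this count does not set multi-marker cells apart from the library. Zbtb16, a defining gene of NKT cells, had a UMI in 4 of the 19. The name innate-like follows the rule genes, and no narrower name is given. For the 52 cells with 1 rule UMI the name rests on that UMI alone.

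Across genes, a larger share was at least 2-fold higher in the multi-marker cells than in the whole marker-positive group, and the multi-marker cells also hold fewer UMIs. Among 7649 genes with at least 20 UMIs over both groups, 9.03% were at least 2-fold higher in marker-positive cells, and among 7512 genes 19.1% were so in multi-marker cells. Many genes had no UMI in the smaller group, and a gene at 0 counts below as 2-fold lower only where the floor of 3 UMIs is itself 2-fold under its level in marker-negative cells. By that count 11% of genes were lower in marker-positive cells and 5.52% in multi-marker cells. Counting every gene at 0 as lower would give 16.6% and 35%, most of which this depth cannot show. Among genes with at least 100 UMIs the shares were 2.48% higher and 5.93% lower in marker-positive cells, and 12% higher and 14.3% lower in multi-marker cells (21.1% with genes at 0). Scaling by TMM factors in place of total UMIs shifted every log2 ratio by -0.20 in marker-positive and by -0.61 in multi-marker cells. With it, 5.87% of genes were higher and 14.5% lower in marker-positive cells, and 8.36% and 14.9% in multi-marker cells. Higher genes were then 28.9% and 35.9% of the calls, against 45.2% and 77.6% with total UMIs.

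Id2, an inhibitor of E proteins that innate lymphocytes depend on, was found in nearly all multi-marker cells and in few marker-negative cells. It was present in 18 of 19 multi-marker cells, at 0 to 11 UMIs per cell with a median of 3, and in 8.96% of marker-negative cells (7.41 to 10.7). Its level was 1681 CPM (1300 to 2139) against 92.4 CPM (79.2 to 107.3), 18.2-fold higher, a log2 ratio of 4.18 (3.75 to 4.60). The deepest multi-marker cell held 5 of its 66 UMIs. After thinning to 1000 UMIs, Id2 remained in 16 of 19 multi-marker cells and in 7.44% of marker-negative cells. In all marker-positive cells Id2 was present in 28 of 77, with a log2 ratio of 2.78 (2.39 to 3.16), and in the Treg library it was at 49.3 CPM.

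Other regulators of innate and effector T cells were spread over fewer cells. Of 11 regulators measured in multi-marker cells, 5 were at least 2-fold higher, against 19.1% of all genes, and 0 at least 2-fold lower at the floor, against 5.52%. Their median log2 ratio was 0.23, or 1.24 with genes at 0 set to the floor of 3 UMIs, against -0.14 and 0.80 over all genes. Those higher were Id2, Runx3 (1.503, 7 UMIs), Gata3 (1.20, 0.05 to 2.16, in 5 cells), Maf (1.54, 3 UMIs) and the signalling adaptor Sh2d1a (1.24, -0.41 to 2.51). Another 4, Egr1, Egr2, Slamf1 and Slamf6, were at 0, with levels in marker-negative cells too low for a 2-fold bound. Tbx21 had no UMI in multi-marker cells and 2 in all marker-positive cells. Rora had none in either. The regulators summed to a log2 ratio of 1.29 (1.03 to 1.55) in multi-marker cells, with Id2 at 1681 of their 3235 CPM.

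Chemokine receptors for inflamed tissue and gut were found in part of the multi-marker cells. Ccr2, a receptor for monocyte chemoattractants, gave 19 UMIs in 9 of 19 multi-marker cells and 14 UMIs in 7 of 1217 marker-negative cells, a log2 ratio of 6.01 (4.93 to 7.11). Cxcr3, which reads interferon-induced chemokines, gave 15 UMIs in 7 multi-marker cells and 17 UMIs in 14 marker-negative cells, with a ratio of 5.39 (4.28 to 6.48). Ccr9, a receptor for gut and thymus homing, gave 26 UMIs in 8 multi-marker cells, and its ratio was 5.87 (4.99 to 6.78). Of these 26 UMIs, 57.7% came from the deepest cell, without which the ratio was 4.87 (3.67 to 5.99). Of 10 homing genes that passed the 20-UMI minimum, Ccr2 and Cxcr3 did so only through the multi-marker cells. Their ratios are therefore given as values only, and a count over the 10 is not given. Of the 8 that reached it in marker-negative cells alone, 2 were at least 2-fold higher (Ccr9 and Cx3cr1, the latter with 2 UMIs) and 0 lower at the floor, and they summed to a log2 ratio of 1.30 (0.86 to 1.71). With Ccr2 and Cxcr3 the sum was 2.003. Itgb7, Gpr183, Cd69 and Ccr4 had log2 ratios between -0.47 and 0.34.

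Granule genes were present in part. Srgn, which encodes the proteoglycan serglycin of secretory granules, was at 1630 CPM in multi-marker cells against 367.6 CPM in marker-negative cells, in 14 of 19 cells, a log2 ratio of 2.15 (1.76 to 2.52), and 26.6% of its UMIs came from the deepest cell. Rab27a, a GTPase of granule release, had a ratio of 1.71 (0.22 to 2.89) and the lysosomal protease gene Ctsd one of 0.94 (-0.08 to 1.81). Lamp1, a lysosomal membrane protein, had a ratio of -0.09. Of the genes for killing proteins, Gzma, Gzmb, Gzmk, Gzmm and Prf1 had no UMI in multi-marker cells, which allows up to 76.4 CPM. In marker-negative cells Prf1 had 13 UMIs, Gzma 1, Gzmb 0, Gzmk 1 and Gzmm 2, so their absence says little. Another killing gene, Fasl, gave 2 UMIs in 2 multi-marker cells and 11 UMIs in 6 marker-negative cells, too few to compare. The 4 measured granule genes summed to a log2 ratio of 1.62 (1.29 to 1.93), with 2 of 4 at least 2-fold higher, against 19.1% of all genes.

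Most cytokine genes were near the limit of detection. Ifng and Il4 each gave 1 UMI in multi-marker cells, too few to compare, and Il17a had none. Ltb, which encodes lymphotoxin beta, was found in 15 of 19 cells with a log2 ratio of 0.99 (0.57 to 1.39). Il2rb, a receptor chain for IL-2 and IL-15, gave 4 UMIs and a ratio of 2.40 (0.45 to 3.88), and Il7r, the IL-7 receptor, 27 UMIs in 12 cells and a ratio of 1.40 (0.78 to 1.96). Tgfbr2, a receptor for TGF-beta, was lower at -1.74 (-4.02 to -0.18). Of 10 cytokine receptors measured, 2 were at least 2-fold higher, a share near the 19.1% of all genes, and 3 at least 2-fold lower at the floor, against 5.52% of all genes. The direction of their sum depended on the scaling (log2 ratio 0.35 with total UMIs, -0.26 with TMM factors).

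Genes of effector and memory T cells were higher in most of the list. Of 23 measured, 15 were at least 2-fold higher in multi-marker cells, against 19.1% of all genes, and 2 at least 2-fold lower at the floor, against 5.52%, with a median log2 ratio of 1.48. S100a6, a calcium-binding protein of memory cells, had a ratio of 3.798 (3.18 to 4.38), but its 32 UMIs came from 5 cells, 14 of them from 1. S100a11 was in 8 cells with a ratio of 2.32 (1.56 to 3.01). Cd44, the hyaluronan receptor used to define memory cells, gave 9 UMIs in 6 cells, 4 of them in the deepest cell. S100a4 gave 6 UMIs in 3 cells. In contrast, Vim and Emp3 were at least 2-fold lower, and Anxa5 was at 0 and 1.70-fold lower at the floor of 3 UMIs.

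Several genes of naive and recirculating T cells were at or near 0 in the multi-marker cells. Ccr7, the chemokine receptor for entry into lymph nodes, gave 0 UMIs in the 19 cells and 510.1 CPM in marker-negative cells. Set to the floor of 3 UMIs it was 6.68-fold lower, and the exact interval puts its log2 ratio at -2.44 or below. A Ccr7 UMI was found in 0 of 19 cells, which allows a share of up to 15.8% (Clopper-Pearson limit 17.6%), and in 47% of marker-negative cells (44.2 to 49.9). Thinned to 1000 UMIs, the shares were 0 of 19 and 37.005%. Dapl1 gave 0 UMIs against 228.97 CPM, 2.997-fold lower at the floor of 3 UMIs. Igfbp4, Actn1 and Tcf7, a transcription factor of naive and stem-like T cells, gave 3, 2 and 1 UMIs, with log2 ratios of -3.31, -3.38 and -3.41. S1pr1, the receptor for exit into blood, was at -1.67, and Satb1, a chromatin organiser, at -1.43. Of 20 naive genes measured, 11 were at least 2-fold lower at the floor, against 5.52% of all genes, and another 4 were at 0 with no 2-fold bound. Lef1, 1 of these 4, was at 76.9 CPM in marker-negative cells. The exact limit for 0 UMIs in the 19 cells is 93.96 CPM, so Lef1 may be equal. The list summed to -1.45 (-1.78 to -1.15). The median was -2.83, or -1.23 with genes at 0 set to the floor. The 2 that were higher were Il7r and Pde3b (1.60, 0.44 to 2.56).

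**Figure D3:**
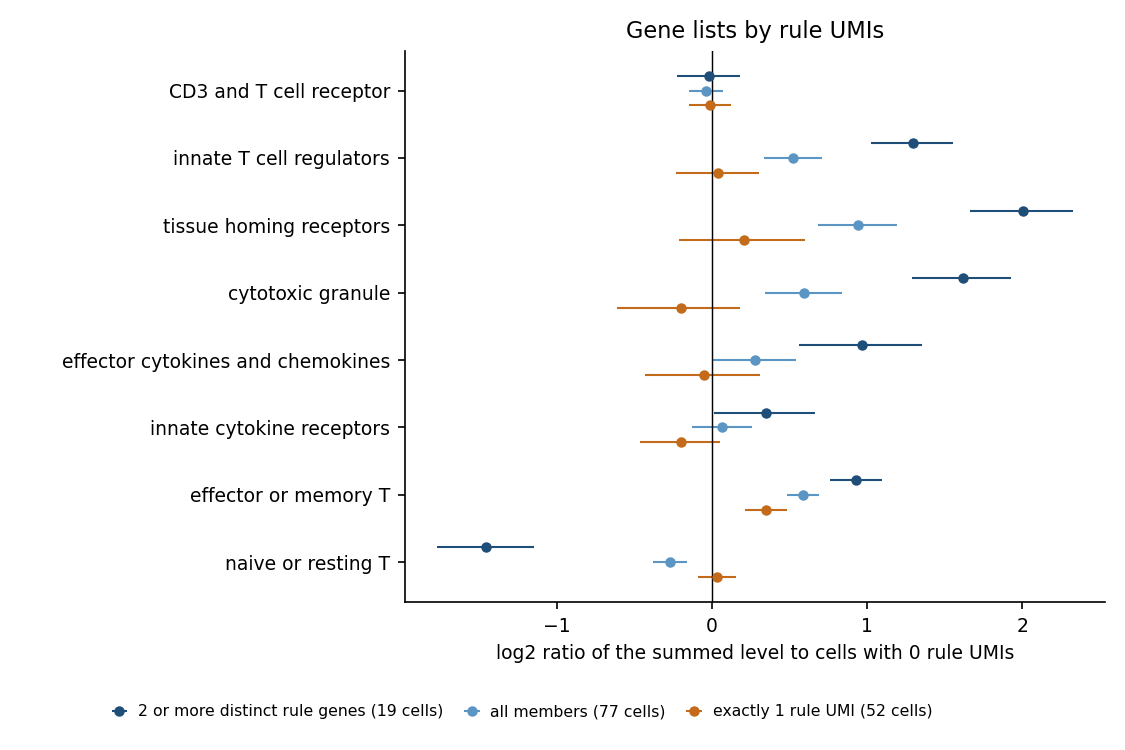
log2 ratio of the summed level of 8 gene lists (rows) to marker-negative cells, for multi-marker cells (19, dark blue), all marker-positive cells (77, light blue) and cells with exactly 1 rule UMI (52, orange); bars are exact intervals for counting error. Scaled by total UMIs, the intervals of the CD3 list hold 0 in all 3 groups, and the naive list lies at -1.45 in multi-marker cells but at 0.03 in cells with 1 rule UMI.

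Genes outside the lists above included several of the 15 chosen as farthest above marker-negative cells in the marker-positive group, given here with their values in multi-marker cells. F2r, the thrombin receptor, had a log2 ratio of 4.396 (3.45 to 5.28) with 16 UMIs in 6 multi-marker cells. Lmo4, a LIM-domain transcription cofactor, had one of 3.72 (3.25 to 4.17), with 52 UMIs in 8 cells, 19 of which came from the deepest cell. AW112010, an interferon-responsive transcript, was in 13 of 19 cells with a ratio of 2.84 (2.27 to 3.38). Rilpl2 had a ratio of 3.73 (2.96 to 4.44) in 5 cells, with 57.1% of its UMIs in 1 cell. Of genes named from other lists, Icos, the T cell costimulator, gave 19 UMIs in 7 cells and a ratio of 3.29 (2.50 to 4.01). A630001G21Rik had a ratio of 4.03 (2.89 to 5.05) in 4 cells. Bcl2a1b (2.89, 8 cells) and Ctla2a (3.93, 6 cells) have near-identical neighbours in the genome, so their counts are uncertain. Hmgb2, a chromatin protein, was at 2.92 (2.42 to 3.38), and 19 of its 43 UMIs came from the deepest cell, without which it was at 2.31 (1.65 to 2.92).

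Of the 10 genes farthest below marker-negative cells in the marker-positive group, 6 had no UMI in 77 cells and were at least 2.16-fold lower. They were Isca2, Il6st, Xpo1, Brd7, Rabggtb and H2-Eb1, a class II gene of antigen-presenting cells. In marker-negative cells the 86 UMIs of H2-Eb1 came from 11 of 1217 cells, with up to 20 in 1 cell. With so few cells holding H2-Eb1, its absence from the 77 cells says little about its level there. The others of the 6 were each found in 68 to 94 marker-negative cells. Sec23b, a coat protein of vesicles, had 1 UMI against 89.2 CPM in marker-negative cells, a log2 ratio of -3.65 (-8.96 to -1.15). Atp6ap2 and Mif4gd also had 1 UMI each, and Ilk, the integrin-linked kinase, had 4, with a ratio of -2.15 (-4.04 to -0.77). The 10 genes were low in marker-negative cells too, at 46.2 to 126.3 CPM.

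The cells with exactly 1 rule UMI were close to marker-negative cells in most lists. Their naive list summed to a log2 ratio of 0.03, their CD3 list to -0.01, their cytotoxic granule list to -0.20 and their regulators to 0.04, while their effector or memory list was at 0.35. A UMI of Ccr7 was found in 25 of 52 (48.1%, 34.01 to 62.4), which overlaps the 47% of marker-negative cells, and a UMI of Id2 in 8 of 52 (15.4%, 6.88 to 28.1), which overlaps 8.96%. Of 7569 genes, 10.2% were at least 2-fold higher and 10.1% lower at the floor (22.7% with every gene at 0).

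Id2 was higher, and Ccr7 lower, in cells with at least 3 rule UMIs than in cells with 0 or 1. Id2 was at 92.4 CPM in cells with 0, 231.4 CPM (143.2 to 353.7) in the 52 cells with 1, 428.2 CPM (139.05 to 999.3) in the 7 cells with 2 and 1663 CPM (1277.97 to 2128) in the 18 cells with at least 3. Ccr7 was at 510.1 CPM (478.1 to 543.6), 352.6 CPM (241.2 to 497.7), 171.3 CPM (20.7 to 618.8, 2 UMIs) and 0 CPM (up to 97.4) in the same groups. Its intervals at 0, 1 and 2 rule UMIs overlap. For Id2 the interval of the 7 cells with 2 rule UMIs overlaps that of the 52 cells with 1 and lies below that of the 18 cells. Cxcr3 and Ccr9 had 0 UMIs in the 7 cells with 2 rule UMIs, which allows up to 315.9 CPM, so their order over the groups is not shown. S100a4 was at 770.8 CPM in these 7 cells and at 52.8 CPM in the 18 cells. Cd4 levels had no order by rule UMIs, at 695.5, 914.5, 256.9 and 633.6 CPM in cells with 0, 1, 2 and at least 3.

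**Figure D4:**
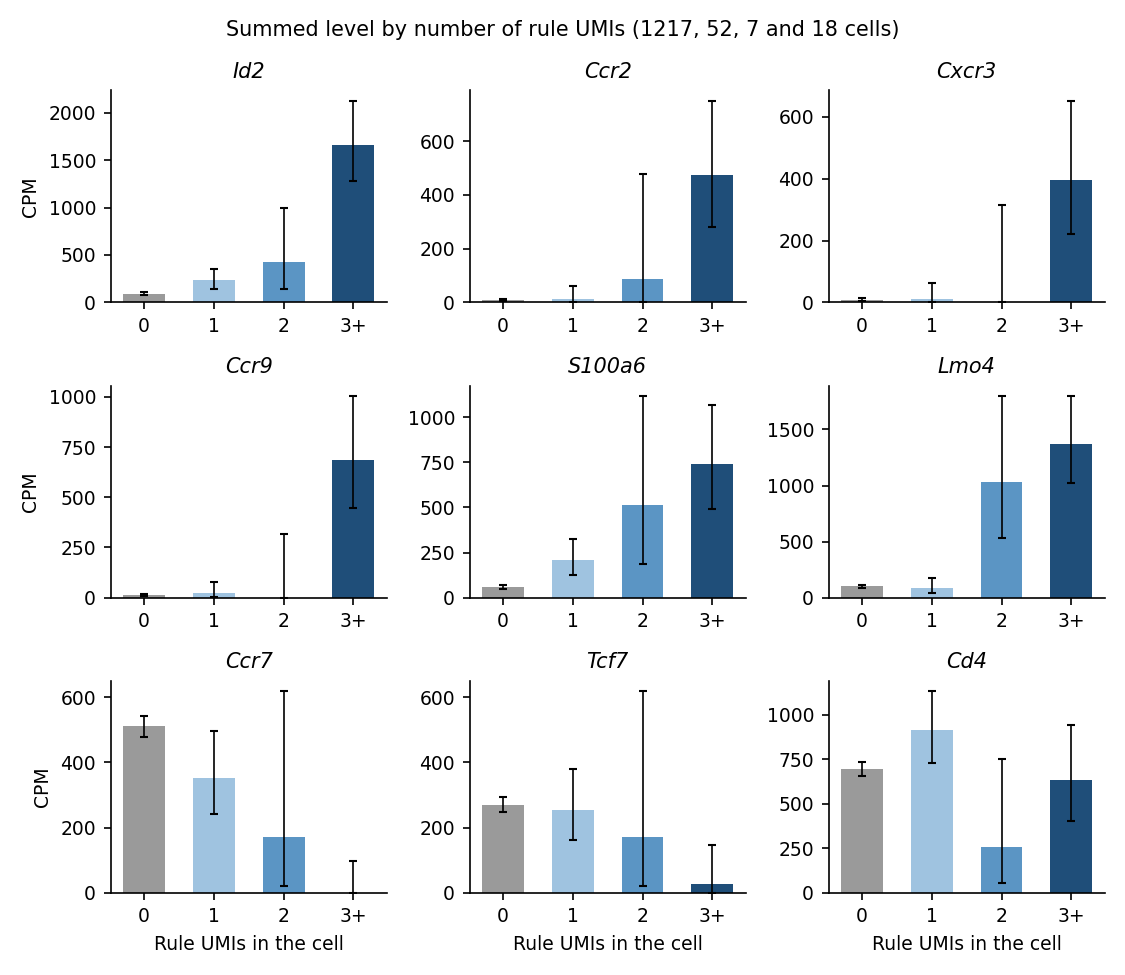
Summed level (CPM, bars from 0) of 9 genes in Tconv cells with 0, 1, 2 and at least 3 rule UMIs (1217, 52, 7 and 18 cells); error bars are exact Poisson intervals. Id2 goes from 92.4 CPM at 0 rule UMIs to 1663 CPM at 3 or more, and Ccr7 is at 0 UMIs in the last group.

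Some marker-negative cells with effector genes shared part of this profile. The 59 marker-negative cells with at least 2 UMIs of S100a4, S100a6, Itgb1 and Ahnak served as the nearest comparison. Of the genes with at least 20 UMIs in these 59 cells alone, 4% were at least 2-fold higher in multi-marker cells and 15.3% lower at the floor. With the minimum taken over both groups the shares were 9.73% and 12.6%. The 9.73% includes genes that reached 20 UMIs only through the multi-marker cells. Of the 59 cells, 6 (10.2%) held markers of other blood cells, their myeloid list was at 3755 CPM against 304.2 CPM in all marker-negative cells, and their plasma cell list was at 4091 CPM, nearly all from 1 cell. Id2 was present in 33.9% of these effector-gene-positive cells, and its level in multi-marker cells was higher by a log2 ratio of 2.32 (1.70 to 2.97). Il7r was higher by 1.49 (0.65 to 2.35) and Ltb by 1.17 (0.61 to 1.73). Lmo4 (52 UMIs against 11), Ccr9 (26 against 1), Ccr2 (19 against 10), Cxcr3 (15 against 10) and Icos (19 against 10) reached 20 UMIs only through the multi-marker cells. Their ratios are therefore given as values only: 3.56, 6.02, 2.25, 1.91 and 2.25. AW112010 (0.70, 0.02 to 1.36) and S100a11 (0.25, -0.62 to 1.07) were nearer to equality. Without the cells holding markers of other types, which left 14 and 53 cells, the log2 ratio was 2.60 for Id2 (1.93 to 3.29), 3.82 for Lmo4, 3.82 for Ccr9 (4 UMIs against 1), 5.52 for Ccr2 (13 against 1) and 0.82 for Cxcr3 (-1.07 to 2.51). Ccr9 is itself counted among those markers, so its value is set in part by leaving these cells out. Ccr7 was present in 18 of the 59 effector-gene-positive cells (30.5%) and in none of the 19. Cd4 was present in 39 of the 59 (66.1%, 52.6 to 77.9) and in 8 of the 19 (42.1%, 20.3 to 66.5), with intervals that overlap. The NK list gave a UMI in 4 of the 59 (6.78%, 1.88 to 16.5). Its level there was 305.3 CPM, all from Tyrobp and Fcer1g, against 152.8 CPM in multi-marker cells. The 59 cells were chosen by effector genes, so those genes are not compared.

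Markers of other blood cells were few but not evenly spread, and they are given for all lists. Lists of platelet, erythroid, plasmacytoid dendritic, myeloid, plasma and B cell genes were counted, and cells holding 3 or more UMIs of any of them were 5 of 19 multi-marker cells (26.3%), 9 of 77 marker-positive cells (11.7%) and 35 of 1217 marker-negative cells (2.88%). In the multi-marker cells, 4 of these 5 came from the plasmacytoid dendritic list, in which 5 of 10 genes had a UMI (Bst2, Ccr9, Tcf4, Ly6c2 and Runx2), its summed level was 0 to 23 UMIs per cell, and the defining genes Siglech, Spib and Irf8 were at 0. Ccr9 alone gave 26 of its 40 UMIs. Of 13 B cell genes only Cd74 had a UMI (1), and Cd79a, Cd79b and Ms4a1 were at 0. Of 17 myeloid genes only Cst3 had UMIs (2), with Lyz2, Csf1r and Cd68 at 0, and of 7 plasma cell genes Xbp1, Prdm1 and Irf4, which activated T cells also use, had 7 UMIs in all, 4 of them in 1 cell, with Jchain and Sdc1 at 0. Of 7 erythroid genes only Car2 was seen, and no platelet gene was. Without the 5 cells, Id2 was present in 14 of 14 multi-marker cells with a log2 ratio of 4.58 (4.11 to 5.04), Ccr2 was at 6.18, Ccr9 at 3.89 (4 UMIs), Hmgb2 at 1.67, Ccr7 stayed at 0 UMIs, and the naive list summed to -1.18. Ccr9 UMIs helped to choose the cells left out, so the fall of Ccr9 is set in part by that choice.

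The deepest multi-marker cell held 6004 UMIs, 3.96 times the Tconv median, and 15.3% of all UMIs of the 19 cells. Without it, the log2 ratio was 4.31 for Id2, 5.81 for Ccr2, 5.53 for Cxcr3 and 3.30 for Lmo4. Whether this droplet held more than 1 cell was not tested.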

How the data were processed

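Spleen Tconv and Treg cells were captured with inDrops. The deposited table holds raw UMI counts (whole numbers, the largest 368) of 23725 genes in 2116 cells, per the values themselves and the labels, with 9003 genes at 0 in every cell. The build mm10 and the tools SAMtools and TopHat2 are listed in the submitters' processing notes; the sources used here do not name the UMI counter, annotation or cell filters. The libraries hold 2002752 (Tconv) and 1468203 (Treg) UMIs.

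Marker-positive and marker-negative cells hold 140321 and 1860494 UMIs, so 1 UMI weighs far more in the first. UMIs were summed over cells and expressed per 1000000 UMIs (CPM). Sums have exact Poisson intervals, ratios exact conditional intervals and shares Clopper-Pearson intervals, all at 95% (a share of 0 is also given the limit of 3 counts). Of these, only the ratio intervals were checked on simulated counts. Those counts were drawn independently, so the check does not cover UMIs that gather within cells. Genes with at least 20 UMIs over both groups were compared, with a size threshold of 2-fold, and a group at 0 was set to a floor of 3 UMIs (21.4 CPM in marker-positive, 76.4 in multi-marker and 1.61 in marker-negative cells). No test was possible with 1 library per group. Rule genes were left out of all lists and counts. Named genes were the rule genes, CD3 and coreceptor genes, the 15 highest and 10 lowest by the interval bound nearest equality in marker-positive cells, and up to 4 genes per list; other genes were named after their values were seen, and some list members are not reported here. The members, the 27 lists (363 entries) and the comparisons were chosen with earlier results of these data known. The planned effector class (at least 3 UMIs of the effector list) took 961 of 1217 marker-negative cells and was replaced, after seeing this, by 4 genes. No doublet caller was run; cells above 2 times the median depth were left out as an alternative. Positions are from GENCODE on GRCm38, promoters from RefSeq. Python 3.11.15, scipy 1.17.1 and edgeR 4.0.16 (TMM factors only) were used.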

Additional observations from a re-analysis of the deposited data

How the results depend on the processing

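The results depended most on how many rule UMIs were asked for. The member share of Tconv cells was 1.93% with at least 2 rule UMIs, 1.47% with at least 2 distinct rule genes and 3.17% with the rule without Ctsw. With at least 2 rule UMIs, 16.9% of genes were at least 2-fold higher and 30.7% lower (9.03% and 16.6% as first chosen; 10.96% lower with genes at 0 set to the floor, added after seeing the data), and the log2 ratios were 1.42 (cytotoxic granule), 1.13 (regulators), 0.46 (cytokine receptors), 0.73 (cytokines), 1.75 (homing), 0.94 (effector) and -1.07 (naive). With at least 2 distinct rule genes they were 19.1%, 35.04%, 1.62, 1.29, 0.35, 0.97, 2.003, 0.93 and -1.45. Without Ctsw, 13.8% of genes were higher, and the granule, regulator, homing, effector and naive lists were at 0.96, 0.84, 1.42, 0.80 and -0.74. With exactly 1 rule UMI, the granule and naive lists changed sign, to -0.20 and 0.034. Regulators, receptors, cytokines, homing and effector were then at 0.039, -0.20, -0.052, 0.21 and 0.35. The homing values include Ccr2, Cxcr3 or Cxcr5 where these reached the UMI minimum only with the chosen cells added. Without such genes, homing was at 1.30 (0.86 to 1.71) with at least 2 distinct rule genes. It was then at 0.86 (0.50 to 1.20) without Ctsw and 0.09 (-0.35 to 0.50) with exactly 1 rule UMI. No such value is given for at least 2 rule UMIs. Gene shares and lists without Ctsw or with exactly 1 rule UMI were added after seeing the data; the member share without Ctsw was planned.

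TMM factors gave 5.87% of genes higher, CD3 -0.23, regulators 0.33, receptors -0.13, effector 0.39 and naive -0.47, and in multi-marker cells turned the cytokine receptor list to -0.26. No minimum of UMIs gave 13.7% of genes higher and 38.97% lower, and a minimum of 100 UMIs, added after seeing the data, 2.48% and 5.93%. The homing list, at 0.94 in marker-positive cells, was at 0.54 after thinning to 1000 UMIs (cytokines 0.55). It was at 0.65 without cells above 2 times the median depth. Without cells holding markers of other types, which include Ccr9, it was at 0.54. The 0.94 includes Cxcr3, Cxcr5 and Ccr2, which reached the UMI minimum only with the marker-positive cells added. Without these genes the homing list was at 0.53 (0.23 to 0.83). The other settings are not given without them. For the multi-marker cells, 84 of the alternative values lay within the interval of the main value, 24 outside it with the same sign and 1 had the other sign.

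No paired analysis was possible because each group is 1 library and cells carry no replicate number. Marker-positive and marker-negative cells come from 1 library, and Treg values from 1 other, so intervals cover counting error only.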
